A study of Mus musculus with 66 samples.

Results

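Hox genes encode homeodomain transcription factors that lie in 4 clusters, Hoxa, Hoxb, Hoxc and Hoxd. They were followed here in mouse embryonic stem cells that had been differentiated into progenitors of the ventral spinal cord. Members were taken by symbol: each row of the expression table named Hox, then a, b, c or d, then a paralog number. This gave 39 of 24410 gene rows, with 11 Hoxa, 10 Hoxb, 9 Hoxc and 9 Hoxd genes. Polyadenylated RNA was sequenced from 66 libraries in 26 groups, 15 with 3 libraries, 10 with 2 and 1 with a single library. A group is 1 genotype (37 WT and 29 MUT libraries), day (D5, D7, D9 or D11), sorted progenitor domain (p1, p2 or pM) and NFIA gate (NFIAn or NFIAp).

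The groups shared 1 differentiation protocol. Cells received bFGF at 10 ng/ml, then the Wnt pathway agonist CHIR99021 at 5 µM from day 2, then retinoic acid at 100 nM and the hedgehog agonist SAG at 10 nM from day 3. From day 5 only SAG was kept, so cells of D7, D9 and D11 had been without added retinoic acid since day 5. The labels name neither the mutated gene nor the number of clones behind each genotype. Nothing in the labels says that the libraries of a group are separate cultures. The p-values therefore reflect the spread among the libraries at hand, which may be technical. All MUT libraries were NFIAn and all WT libraries of D11 were NFIAp. WT p2 and pM cells of D9 were sorted both ways, and all remaining WT groups were NFIAn.

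Within a cluster the genes are numbered from the 3′ end, and genes with the same number in different clusters are paralogs. Low numbers are first expressed early and reach far forward into the hindbrain, and higher numbers come on later and further back, a relation known as collinearity. In the embryo retinoic acid acts on the 3′ genes, while Wnt and FGF signals, largely through the Cdx factors, and later Gdf11 open the central and 5′ genes. Hox proteins bind DNA with TALE cofactors of the Pbx and Meis families. In spinal motor neurons paralogs 4 to 8 mark cervical and brachial levels, paralogs 9 the thoracic level and paralogs 10 the lumbar level.

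The promoters of 4 members are shown because these genes carry the patterns described further on. Hoxb1 had the largest fall with time, Hoxa5 and Hoxd8 rose, and Hoxa7 differed between genotypes. They were chosen after the values were seen. The windows run from 250 bases before to 50 bases after the annotated start (RefSeq, GRCm38.p6), and the capitals mark 1 searched motif in each. The following 3 short forms were searched on both strands: TTTATG, a Cdx site, TGATNNAT, a joint Hox and Pbx site, and AGGTCA, the repeat unit bound by retinoic acid receptors. The Hoxb1 window, chr11:96365508-96365807 on the plus strand, holds 1 TGATNNAT match. The Hoxa5 window, chr6:52204538-52204837 on the minus strand, and the Hoxd8 window, chr2:74704365-74704664 on the plus strand, hold 1 AGGTCA match each. The Hoxa7 window, chr6:52218524-52218823 on the minus strand, holds 2 TTTATG matches. No 2 of these matches overlap.
Hoxb1: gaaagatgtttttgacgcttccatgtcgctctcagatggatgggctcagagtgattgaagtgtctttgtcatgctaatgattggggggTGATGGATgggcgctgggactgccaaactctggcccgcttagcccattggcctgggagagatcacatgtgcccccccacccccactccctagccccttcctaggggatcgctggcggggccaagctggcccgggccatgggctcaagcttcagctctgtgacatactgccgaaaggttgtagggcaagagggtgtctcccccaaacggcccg
Hoxa5: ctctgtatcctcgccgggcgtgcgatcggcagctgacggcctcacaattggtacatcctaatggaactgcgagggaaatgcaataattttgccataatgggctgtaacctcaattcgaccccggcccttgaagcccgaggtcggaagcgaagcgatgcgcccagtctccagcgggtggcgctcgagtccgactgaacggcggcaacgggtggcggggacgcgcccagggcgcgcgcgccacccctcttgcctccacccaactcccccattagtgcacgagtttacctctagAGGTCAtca
Hoxd8: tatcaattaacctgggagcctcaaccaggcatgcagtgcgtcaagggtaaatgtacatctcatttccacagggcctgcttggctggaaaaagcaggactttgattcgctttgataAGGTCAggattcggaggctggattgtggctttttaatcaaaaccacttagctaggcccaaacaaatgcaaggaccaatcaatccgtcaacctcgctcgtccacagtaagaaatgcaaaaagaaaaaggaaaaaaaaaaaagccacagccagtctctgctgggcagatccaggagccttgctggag
Hoxa7: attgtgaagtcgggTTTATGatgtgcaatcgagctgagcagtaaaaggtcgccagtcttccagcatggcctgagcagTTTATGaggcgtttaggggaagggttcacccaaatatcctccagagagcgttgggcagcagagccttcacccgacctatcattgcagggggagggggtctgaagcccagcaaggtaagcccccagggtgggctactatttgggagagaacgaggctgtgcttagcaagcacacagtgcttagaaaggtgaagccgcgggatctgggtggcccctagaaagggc

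The reference table held 24 promoters for 22 of the 39 members. TTTATG was found in 5 of these 24 (20.8%) and in 11.9% of all 32851 promoters. TGATNNAT was found in 4 (16.7%) and in 8.85% of all, and AGGTCA in 7 (29.2%) and in 16.3% of all. Such matches describe letters in a window and are not binding sites.

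On GRCm38 (GENCODE annotation) the Hoxa cluster lies on the minus strand of chromosome 6, with Hoxa2 from 52162417 to 52164831 and Hoxa13 from 52257694 to 52260880. Hoxb lies on the plus strand of chromosome 11, with Hoxb13 starting at 96194316 and Hoxb1 ending at 96368256. Hoxc runs on the plus strand of chromosome 15 from the start of Hoxc13 at 102921103 to the end of Hoxc4 at 103036852. Hoxd runs on the plus strand of chromosome 2 from the start of Hoxd13 at 74668310 to the end of Hoxd1 at 74765142. Neighbouring transcripts share exon sequence, and the strand used in counting is not given in the sources used here. The share of exon bases that overlap another gene was 62.8% for Hoxd3, 52.9% for Hoxb3, 52.3% for Hoxd4, 27.3% for Hoxb2 and 20.4% for Hoxa7, so part of their counts may come from a neighbour. It was 0 for Hoxa5, Hoxa6, Hoxb1, Hoxb6, Hoxb7, Hoxb9, Hoxc6, Hoxc8, Hoxc9 and Hoxd8.

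The deposited values are read counts divided by a size factor, called normalised counts here. Recovered reads per library ranged from 20.3 to 30.8 M, except in the MUT D5 p2 replicate 2 library with 8.74 M. The 39 members took 4726 to 32094 reads per library, or 0.0348% to 0.12% of its reads. The p1 and pM libraries were apart from the others in the markers given here. Dbx1, a gene of both p0 and p1, ran from 3032 to 13683 in p1 and at most 2074 elsewhere. Olig2, a motor neuron progenitor gene, ran from 658 to 4544 in pM and at most 173 elsewhere. The p2 markers overlapped other domains. Foxn4 ran from 10.0 to 732 in p2 and up to 104 in p1, and Vsx1 from 40.1 to 2470 in p2 and up to 105 in pM. A set of 18 libraries (replicate 3 of D7, replicates 2 and 3 of D9) had normalised totals of 26.6 to 40.2 M against 17.8 to 25.5 M in the others, with 7.501% to 19.1% ribosomal protein reads against 2.48% to 10.9%. The MUT replicate 1 libraries of D5, D7 and D9 also stood apart from the other MUT libraries in several Hoxa and Hoxc genes. Results that rest on them are given with and without all 18 replicate 1 libraries of both genotypes, a repeat chosen after the data were seen.

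Genes at the 3′ ends and centres of the clusters made up nearly all Hox RNA. Reads summed over the 66 libraries were 305667 for paralogs 2, 96652 for paralogs 3, 71300 for paralogs 4, 148459 for paralogs 5, 139211 for paralogs 6, 203669 for paralogs 7, 44236 for paralogs 8 and 81266 for paralogs 9. Paralogs 10 gave 300 reads, paralogs 11 and 12 gave 0, and paralogs 13 gave 1009. Of the genes at numbers 10 to 13, Hoxa10 was detected in 48 of 66 libraries and Hoxb13 in 41. Hoxb13 had the most reads and was highest in MUT D9 pM replicate 1, at 69.5 normalised counts (105 reads). The 6 genes Hoxa11, Hoxa13, Hoxc11, Hoxc12, Hoxd11 and Hoxd12 had 0 reads among 1601 M, which allows up to 0.00187 reads per M (3 reads, counting error only). Hoxc10 and Hoxd10 had 5 reads each, all in 1 WT D9 p2 NFIAp replicate 1 library, and Hoxc13 had 34. Trace genes of the same end were Hoxd13 with 148 reads, Hoxa10 with 290, Hoxd9 with 392 and Hoxb13 with 827.

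Levels between genes were compared as median normalised count per kb of exon over the 66 libraries. Hoxb7 was highest at 1031, followed by Hoxb2 at 917, Hoxa2 at 787, Hoxb6 at 757, Hoxa7 at 477, Hoxa5 at 473 and Hoxb9 at 352. The order within a cluster did not follow the number. Hoxb8 stood at 8.68 per kb between Hoxb7 and Hoxb9, and Hoxa6 stood at 53.1 between Hoxa5 and Hoxa7. The Hoxc genes were closer to each other, from 140 per kb for Hoxc4, 144 for Hoxc5 and 185 for Hoxc6 to 136 for Hoxc8 and 16.6 for Hoxc9. In the Hoxd cluster Hoxd3 was highest at 125 per kb, followed by Hoxd8 at 63.9, Hoxd4 at 43.1, Hoxd1 at 9.03 and Hoxd9 at 1.23. Only some paralogs of a number were thus abundant: among paralogs 9, Hoxb9 stood at 352 per kb, Hoxc9 at 16.6, Hoxa9 at 9.21 and Hoxd9 at 1.23.

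**Figure D1:**
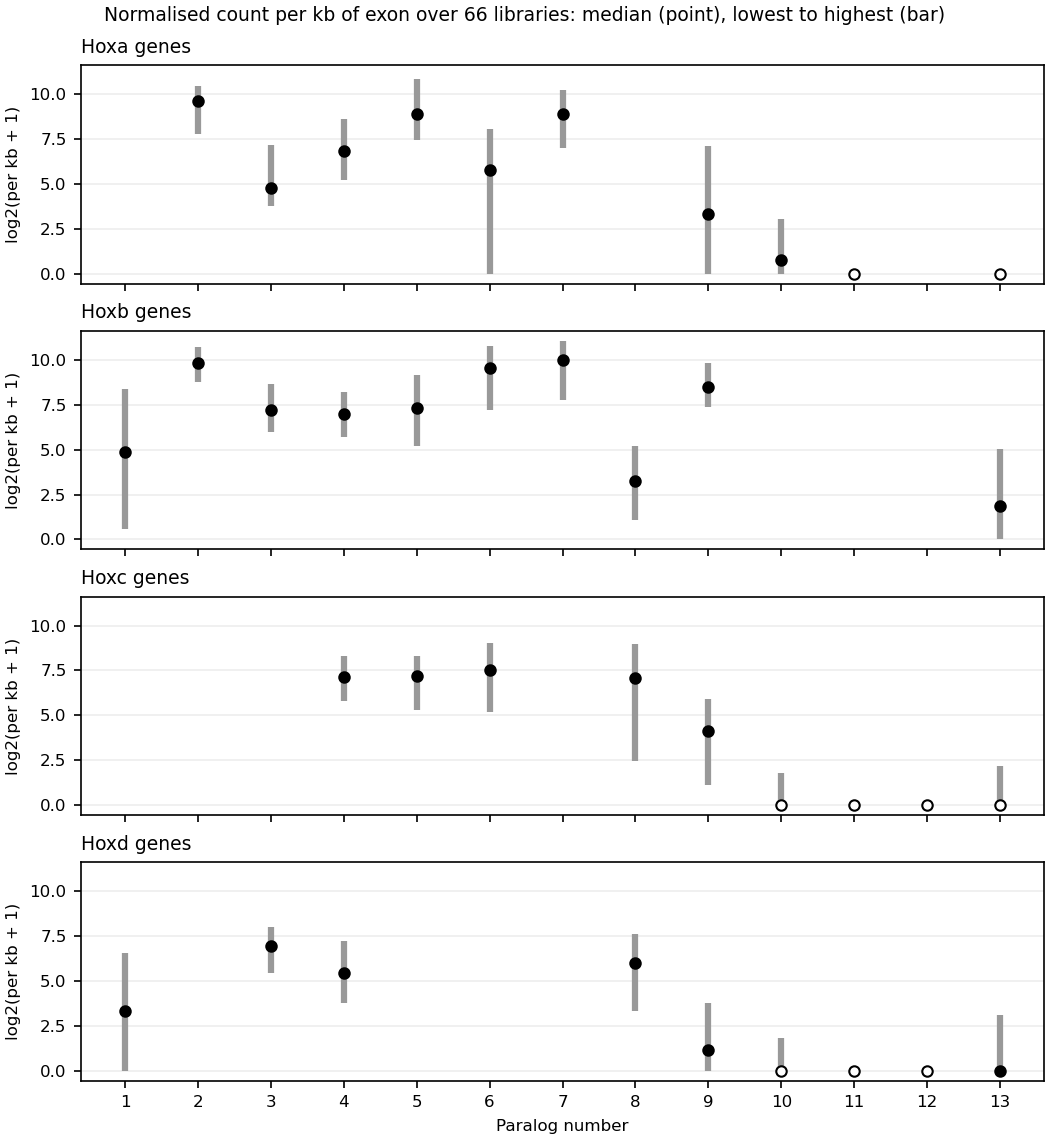
Normalised count per kb of exon, as log2(value + 1), for Hox genes by paralog number in each cluster. Points are medians over 66 libraries and bars run from the lowest to the highest library; open points are the 9 genes not tested, which lie at numbers 10 to 13.

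Tests used limma on log2(normalised count + 1), which understates the change of low genes, over the 15714 genes that reached 10 in 2 or more libraries. Of the 39 members 30 passed this filter, 9 of Hoxa, all 10 of Hoxb, 5 of Hoxc and 6 of Hoxd. Those left out were Hoxa11, Hoxa13, Hoxc10, Hoxc11, Hoxc12, Hoxc13, Hoxd10, Hoxd11 and Hoxd12. Differences are means over domains of the differences within each domain, given on the log2 scale with the fitted SE after ±, and a gene is called at an adjusted p under 0.05 over all genes tested.

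In WT cells the total Hox level rose with time. The summed normalised count of the 39 genes ran from 9882 to 14833 (median 13447) in the 8 libraries of D5 and from 21664 to 25746 (median 24616) in the 6 libraries of D11, with no overlap. Between D5 and D11, 18 of the 30 tested genes rose and 5 fell. Over all genes tested 48% were called, 25.1% higher and 22.8% lower, so the share of Hox genes that rose was above that of all genes and the share that fell was below it. The median log2 difference was 1.19 over the tested Hox genes and 0.04 over all genes. It was 1.53 for Hoxa, 0.80 for Hoxb, 1.35 for Hoxc and -0.62 for Hoxd genes. Without the replicate 1 libraries 17 rose and 5 fell, where 6571 of all genes were called. In these sorted bulk samples fewer cells that express a gene and less RNA per cell cannot be told apart, and D11 cells were NFIAp while D5 cells were NFIAn.

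By number, of the 5 tested paralogs 2 and 3, 3 rose and none fell (median 1.10). Of the 15 paralogs 4 to 8, 13 rose and 1 fell (median 1.64). Of the 16 paralogs 9 to 13, 7 were tested, 2 rose and 1 fell (median 0.79). In 14 of the 18 genes that rose and 2 of the 5 that fell, the D5 and D11 libraries did not overlap within any of the 3 domains. The same count was not made over all genes, so it does not set Hox genes apart.

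Hoxb1, which patterns the hindbrain early and responds directly to retinoic acid, fell furthest among genes with a mean of at least 50. Hoxb1 ran from 389 to 757 (median 543) in the WT libraries of D5 and from 16.8 to 53.4 (median 36.5) at D11. The ranges were far apart, and the fitted difference was -4.01 ± 0.47 (8 and 6 libraries, adjusted p = 1.06e-09). Hoxd4, whose paralogs Hoxa4, Hoxb4 and Hoxc4 in the other clusters rose, fell by 1.03 ± 0.26 (adjusted p = 0.00106). Its libraries overlapped, from 88.0 to 238 at D5 and 48.0 to 103 at D11. Hoxd1 and Hoxd13 were low and are named after their values were seen. Hoxd1 fell from a mean of 48.8 to 9.45 (-3.16 ± 0.84, adjusted p = 0.00166). Hoxd13 fell from 4.74 to 0.297 (-1.82 ± 0.63, adjusted p = 0.0154), a call lost without the WT D11 p2 replicate 3 library (adjusted p = 0.0599).

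Hoxb6, Hoxb7 and Hoxb5, neighbours in the middle of the Hoxb cluster, were among the genes that rose most. Hoxb6 ran from 340 to 497 (median 456) at D5 and from 2276 to 3250 (median 2599) at D11. Every D11 library lay above every D5 library, and the difference was 2.59 ± 0.13 (adjusted p = 1.23e-21). Hoxb7 ran from 418 to 707 (median 572) and from 2463 to 2872 (median 2683), also apart (2.20 ± 0.20, adjusted p = 2.96e-13). Hoxb5 ran from 101 to 276 (median 184) and from 443 to 1007 (median 721), also apart (2.00 ± 0.19, adjusted p = 2.24e-12).

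Hoxa5, Hoxa6, Hoxa9, Hoxc8 and Hoxd8 complete the 8 that rose most. Hoxa5, which in mouse is needed for cervical and phrenic motor neurons, ran from 323 to 788 at D5 and from 1870 to 2779 at D11 (1.89 ± 0.18, adjusted p = 5.83e-12). Hoxd8 ran from 47.0 to 88.9 and from 141 to 392 (1.87 ± 0.24, adjusted p = 1.01e-08). Both genes were apart in all 3 domains. Hoxa6 rose from a mean of 28.6 to 135 (2.13 ± 0.59, adjusted p = 0.00261) and Hoxa9 from 62.8 to 322 (2.21 ± 0.67, adjusted p = 0.00553). The Hoxa9 libraries of D11 differed among themselves, from 125 to 225 in replicate 2 and from 280 to 770 in replicate 3. Hoxc8, a gene of caudal brachial motor neurons, ran from 202 to 461 at D5 and from 746 to 1429 at D11 (1.66 ± 0.48, adjusted p = 0.00345).

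The remaining 10 genes that rose did so by 0.61 to 1.64, from Hoxc4 (0.61 ± 0.19, adjusted p = 0.00537) to Hoxa4 (1.64 ± 0.24, adjusted p = 1.21e-07). Among them Hoxc9 (1.35 ± 0.56, adjusted p = 0.0451), named after its values were seen, was the least stable. Its call held in 2 of 14 repeats that each left out 1 library, those without WT D11 p1 replicate 2 or WT D5 p1 replicate 3, and the adjusted p was 0.0513 to 0.112 in the other 12. Abundant genes could also pass no test. Hoxb2, one of the highest members, ran from 2038 to 4744 at D5 and from 2756 to 5223 at D11 (0.24 ± 0.18, adjusted p = 0.289). Hoxb9 ran from 820 to 2305 and from 552 to 2267 (-0.08 ± 0.25, adjusted p = 0.824), and Hoxd3 from 383 to 658 and from 253 to 556 (-0.22 ± 0.20, adjusted p = 0.389). The 2 days overlapped in each of these 3 genes. Hoxb8, Hoxd9, Hoxa10 and Hoxb13 were low and not called.

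**Figure D2:**
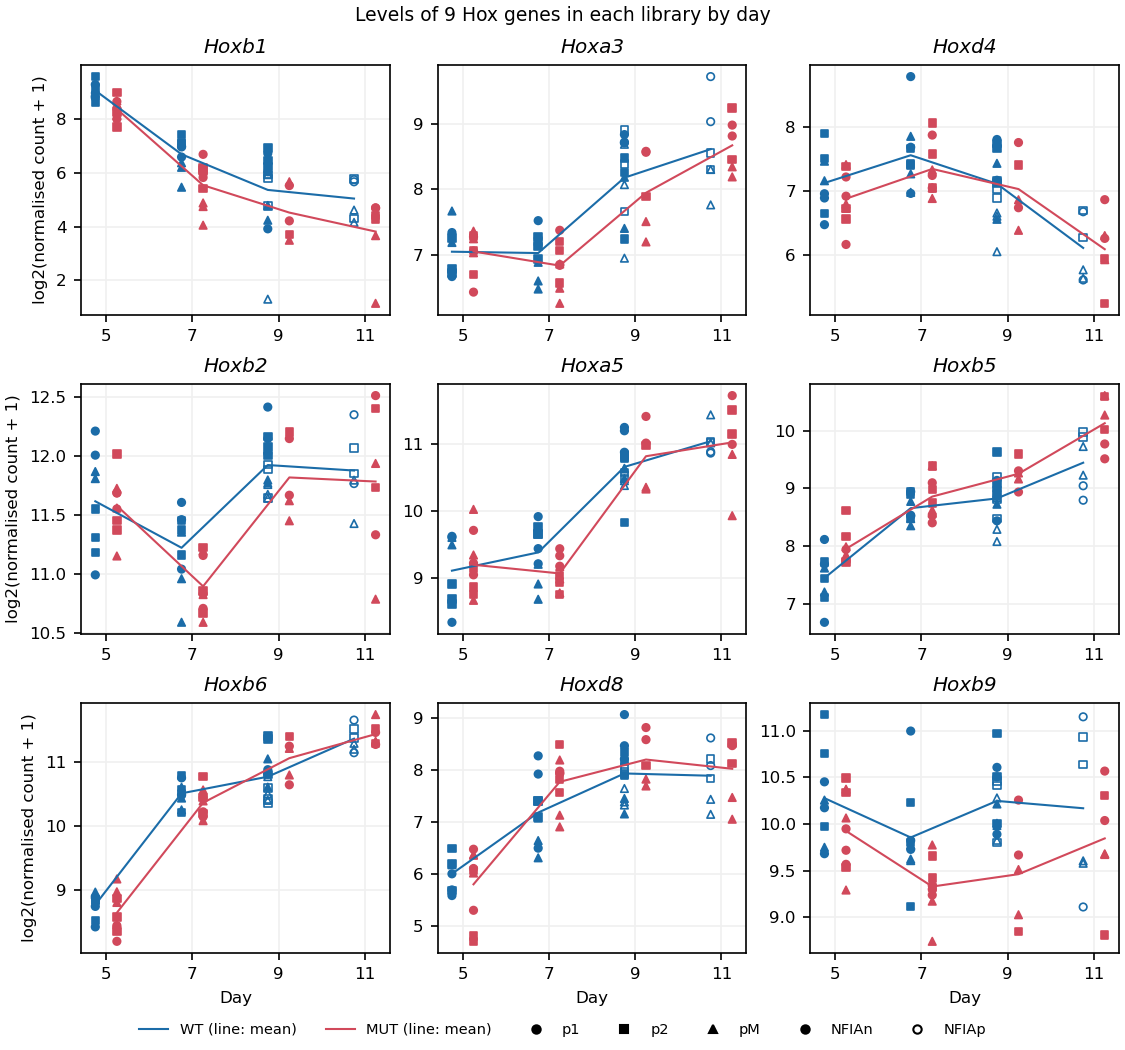
Levels of 9 Hox genes in each library by day, as log2(normalised count + 1), with WT in blue and MUT in red, domains by marker shape and NFIAp libraries as open markers. Lines join the mean of each genotype and day, both gates included; Hoxb1 goes down from D5, Hoxb6 goes up throughout, and Hoxb2 and Hoxb9 end near their D5 levels.

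MUT cells were compared by number in the same way. Between D5 and D11, 17 of the 30 tested genes rose and 4 fell, where 46% of all genes were called (24.1% higher and 22% lower). The median was 0.97 over the Hox genes and 0.02 over all genes. Of the paralogs 2 and 3, 3 of 5 rose (median 0.89), 13 of 15 paralogs 4 to 8 rose and 1 fell (1.44), and 1 of 7 tested paralogs 9 to 13 rose (0.67). Without the replicate 1 libraries 16 rose and 5 fell, where 6273 of all genes were called. The WT and MUT comparisons use different libraries. In the table of their calls, 15 genes rose in both, 4 fell in both, none was called in opposite directions and 5 were called in neither (Hoxa10, Hoxb13, Hoxb2, Hoxb9 and Hoxd3).

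Hoxb1 ran from 205 to 501 (median 332) in the 9 MUT libraries of D5 and from 1.22 to 24.9 (median 19.4) in the 6 of D11, a difference of -4.54 ± 0.46 (adjusted p = 1.53e-11). The days did not overlap. Hoxd1 fell from a mean of 68.6 to 16.9 (adjusted p = 0.0205), but not without MUT D11 p1 replicate 3 or pM replicate 2 (adjusted p = 0.0558 to 0.0897). Hoxd4 fell by 0.79 ± 0.26 (adjusted p = 0.00959).

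Hoxa6 had the largest rise in MUT cells, from 6.68 to 39.2 at D5 to 125 to 228 at D11, without overlap (3.45 ± 0.57, adjusted p = 2.27e-06). Hoxb6 rose from a mean of 406 to 2807 (2.81 ± 0.13, adjusted p = 2.09e-23), Hoxd8 from 59.9 to 278 (2.22 ± 0.23), Hoxb7 from 431 to 1970 (2.18 ± 0.19) and Hoxb5 from 251 to 1160 (2.18 ± 0.18). Hoxa5, Hoxa4 and Hoxa3 rose by 1.83 ± 0.18, 1.67 ± 0.23 and 1.63 ± 0.22. Adjusted p-values of these 6 genes after Hoxb6 were 4.25e-08 or lower by limma. Hoxb8 (mean 14.8 to 34.1) and Hoxd9 (4.09 to 11.8), both low and outside the 50-count rule, were called in MUT and not in WT. The Hoxb8 call was lost in 10 of 15 repeats that left out 1 library (adjusted p = 0.0506 to 0.137). It was kept without MUT D11 p2 or pM replicate 2, MUT D5 p1 replicate 2 or MUT D5 pM replicates 2 and 3. The Hoxd9 call was lost without MUT D5 p1 or p2 replicate 2, and edgeR and DESeq2 did not call it (adjusted p = 0.255 and 0.228).

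A further 4 genes were called in WT and not in MUT: Hoxa9, Hoxc8, Hoxc9 and Hoxd13. Hoxc8 ran from 142 to 796 at D5 and from 109 to 408 at D11 in MUT (-0.23 ± 0.46, adjusted p = 0.72). Hoxa9 ran from 0 to 51.7 and from 8.54 to 82.7 (0.96 ± 0.65, adjusted p = 0.236). Such lists do not show that the changes differed. When the difference between the 2 changes was itself tested, limma called 0 of 30 Hox genes, with 0.77% of all genes called. At an unadjusted p under 0.05 there were 2, Hoxc8 (-1.89 ± 0.66, adjusted p = 0.264) and Hoxc9 (-1.62 ± 0.79, adjusted p = 0.553). edgeR called 0 and DESeq2 called 1. Without the replicate 1 libraries limma again called 0, with Hoxc8 at -1.26 ± 0.47 (adjusted p = 0.539).

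**Figure D3:**
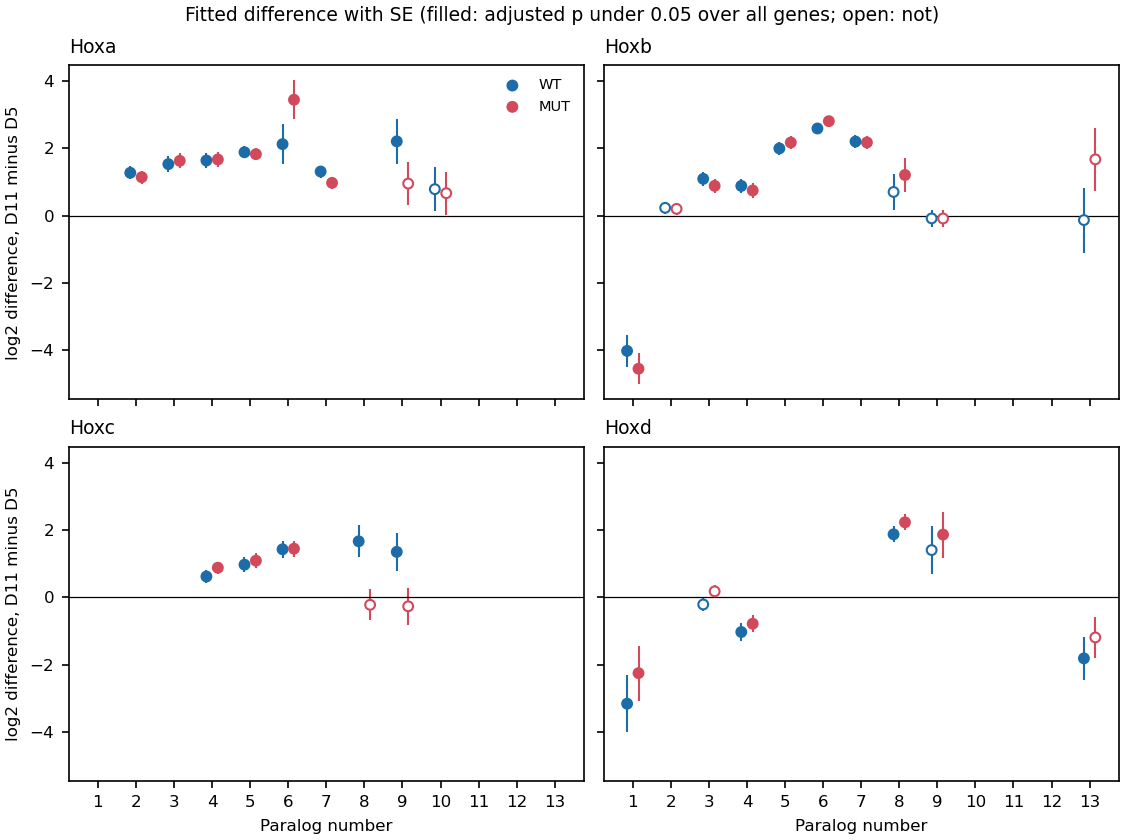
Fitted log2 difference of D11 minus D5 with its SE for tested Hox genes, by paralog number in each cluster, WT in blue and MUT in red. Filled points have an adjusted p under 0.05; Hoxb1, Hoxd1 and Hoxd4 lie below 0, while Hoxa4, Hoxb4 and Hoxc4 lie above.

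The changes were spread over the 3 steps between sampled days in a way that differed from gene to gene. From D5 to D7, 9 WT genes rose and 4 fell, where 19.6% of all genes were called, 10% higher and 9.51% lower. From D7 to D9, 10 rose and 1 fell, where 14.4% were called, 6.3% higher and 8.09% lower. From D9 to D11, tested over NFIAp p2 and pM cells, 2 genes were called and both rose, where 10.1% of all genes were called, 6.16% higher. In MUT cells 11 rose and 7 fell at the first step, where 30.8% of all genes were called (16.5% higher, 14.3% lower). At the second step 8 rose and 1 fell, where 9.71% were called (4.93% higher, 4.78% lower). At the third step 1 rose and 1 fell, where 9.19% were called (5.52% higher, 3.67% lower), so the Hox count there was close to that of all genes. The WT count for D7 to D9 was 7 when the 18 libraries of high total were left out and 6 when the replicate 1 libraries were. Hoxa3, Hoxa5, Hoxb2, Hoxb6 and Hoxb7 were among those called in the last of these.

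Most of the fall of Hoxb1 lay in the first step. Hoxb1 fell from a mean of 539 to 109 in WT (-2.37 ± 0.43) and from 338 to 52.0 in MUT (-2.82 ± 0.41) between D5 and D7. Hoxb6 moved early as well, from 436 to 1473 in WT (1.73 ± 0.12) and by 1.73 in MUT. Other early rises in WT were Hoxb7 (1.35 ± 0.18), Hoxb5 (1.21 ± 0.17), Hoxd8 (1.16 ± 0.22) and Hoxc5 (0.99 ± 0.20), which rose by 1.52, 0.91, 1.97 and 1.04 in MUT. These calls held in every repeat that left out 1 library. Smaller early rises were those of Hoxa2 (0.86 ± 0.18 in WT and 0.67 ± 0.17 in MUT), Hoxc4 (0.66 ± 0.17 and 0.69 ± 0.16) and Hoxa7 (0.64 ± 0.16 in WT). Hoxa7 was called higher in MUT as well (0.48, adjusted p = 0.0145), named here beside its WT value. That MUT call was lost in a fit on only the groups compared (adjusted p = 0.0667) and without the replicate 1 libraries (0.148). It was also lost without MUT D7 p1 or p2 replicate 1 (adjusted p = 0.0508 to 0.0589). Hoxb4 rose in MUT (0.65 ± 0.19, adjusted p = 0.00835) and had 0.52 ± 0.20 in WT (adjusted p = 0.0538). With the 18 libraries of high total left out the MUT calls of Hoxa2 and Hoxb4 were lost (adjusted p = 0.0838 and 0.194).

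Early falls of Hoxd1 and Hoxb9 in MUT each depended on single libraries. Hoxd1 fell from a mean of 68.6 to 18.1 (-2.29 ± 0.73, adjusted p = 0.0146), but not without MUT D7 p1 replicate 3 (adjusted p = 0.0692). Hoxb9 fell from 1009 to 654 (-0.60 ± 0.22, adjusted p = 0.0347), a call lost in 10 of 18 repeats that left out 1 library (adjusted p = 0.0543 to 0.0822). They were those without MUT D5 p1 replicate 1, p2 replicates 1 and 3, pM replicates 1 and 2, MUT D7 p1 replicate 3, p2 replicates 2 and 3 or pM replicates 2 and 3.

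Hoxa5 and Hoxa3 rose at the second step. Hoxa5 ran from 323 to 788 at D5 and from 410 to 968 at D7 in WT (0.22 ± 0.17, adjusted p = 0.371), then from 909 to 2440 at D9 (both gates), and the rise from D7 to NFIAn cells of D9 was 1.34 ± 0.17 (adjusted p = 5.51e-08). In MUT the ranges were 406 to 1043 at D5, 431 to 693 at D7 and 1288 to 2734 at D9, with -0.13 ± 0.16 at the first step and 1.78 ± 0.20 at the second. Hoxa3 showed -0.06 ± 0.21 and then 1.16 ± 0.21 in WT, and -0.22 ± 0.20 and then 1.11 in MUT. Without the replicate 1 libraries, which leaves a single library in each MUT D9 group, the MUT rise of Hoxa3 was 0.95. Hoxb2 fell at the first step in MUT (-0.68 ± 0.16), while no fall was called in WT. It rose at the second in both genotypes (0.80 ± 0.16 in WT and 0.99 in MUT). Leaving out the 18 libraries of high total leaves single MUT D9 libraries in p1 and pM, and the MUT rise was then 0.71. A comparison of D5 with D11 alone does not show the dip in MUT. The WT range of Hoxb2 was 1543 to 3120 at D7, which overlapped 2038 to 4744 at D5, and 3198 to 5462 at D9 (both gates).

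Hoxa4 also rose at the second step, from a mean of 184 to 326 in WT (0.88 ± 0.21, adjusted p = 0.0032) and from 128 to 323 in MUT (1.46 ± 0.25, adjusted p = 6.55e-05). The WT rise was not called without the replicate 1 libraries (adjusted p = 0.141). Further WT rises at this step were those of Hoxd8 (0.83 ± 0.22), Hoxa2 (0.71 ± 0.18), Hoxb7 (0.70 ± 0.18) and Hoxb3 (0.67 ± 0.19). Of these 4, Hoxd8 (adjusted p = 0.0505), Hoxa2 (0.175) and Hoxb3 (0.0558) were not called without the replicate 1 libraries. Hoxb7 and Hoxd8 were not called in a fit on only the groups compared (adjusted p = 0.0652 and 0.0516), nor were Hoxb3 and Hoxd8 without the 18 libraries of high total (0.289 and 0.206). In MUT Hoxb6 rose by 0.76 ± 0.14, which was lost without those 18 libraries (adjusted p = 0.189). Hoxb7 rose by 0.77 ± 0.21 in MUT, which was lost without them (adjusted p = 0.145), without replicate 1 (0.122) and without MUT D9 p1 or p2 replicate 3 (0.0537 to 0.151). Hoxc9 went from 22.5 to 54.0 in MUT (1.83 ± 0.60, adjusted p = 0.0423), and edgeR and DESeq2 did not call it (adjusted p = 0.159 and 0.116). Its call was lost in 10 of 14 repeats that left out 1 library (adjusted p = 0.0563 to 0.123), all but those without MUT D7 replicate 1 of any domain or MUT D9 p1 replicate 3.

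At the last step the WT rises were Hoxb5, from a mean of 405 to 849 (1.09 ± 0.23, adjusted p = 0.00074), and Hoxb6, from 1467 to 2629 (0.84 ± 0.15, adjusted p = 0.000149). Both were apart in p2 and in pM. Without the 18 libraries of high total, which leaves a single D9 NFIAp library in p2 and in pM, the WT Hoxb5 difference was 0.68. In MUT Hoxb5 rose from 615 to 1160 (0.82 ± 0.22, adjusted p = 0.0118), a call lost without MUT D11 p2 replicate 3 (adjusted p = 0.0572). Hoxd4 fell from 138 to 71.2 in MUT (-1.001 ± 0.302, adjusted p = 0.0282), which was lost in 6 of 11 such repeats (adjusted p = 0.0626 to 0.379). These left out MUT D11 p1 or p2 replicate 2, MUT D11 pM replicate 3 or MUT D9 p1, p2 or pM replicate 3. A fit on only the groups compared called neither Hoxb5 (adjusted p = 0.0559) nor Hoxd4 (0.152) in MUT. Leaving out the 18 libraries of high total leaves single MUT D9 libraries in p1 and pM. There the MUT differences were 0.99 for Hoxb5 and -0.22 for Hoxd4. Without the replicate 1 libraries, with a single library in each MUT D9 group, Hoxb5 had 0.74.

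**Figure D4:**
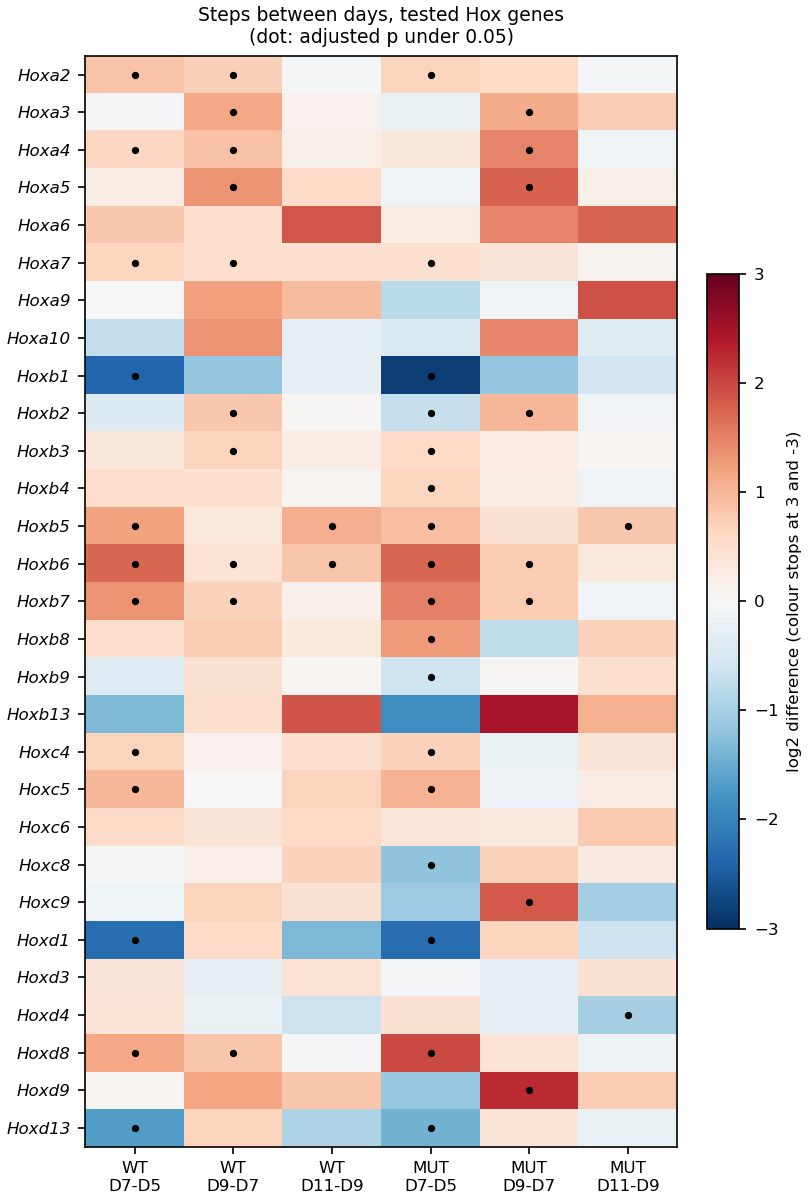
Fitted log2 difference of each step between sampled days for tested Hox genes in WT and MUT; red is higher at the later day, blue lower, and a dot marks an adjusted p under 0.05. Hoxb6 has its deepest red at D7 minus D5 and Hoxa5 at D9 minus D7 in both genotypes.

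Between genotypes the calls lay at numbers 6 to 9 of Hoxa and Hoxc, which in the embryo belong to brachial and thoracic levels, with Hoxb5 and Hoxc4 added at D11. Limma called 0 Hox genes at D5, 4 at D7, 2 at D9 and 5 at D11, where 0.458%, 2.03%, 0.7% and 4.14% of all genes were called. At D5 there were 7 at an unadjusted p under 0.05, and edgeR and DESeq2 called 0. Of the 11 calls 9 were lower in MUT, where 1.25%, 0.344% and 2.34% of all genes were called lower at D7, D9 and D11. The other 2, at D11, were higher, where 1.8% of all genes were. At D5, D7 and D9 both genotypes were NFIAn. At D11 MUT cells were NFIAn and WT cells NFIAp, so genotype and gate cannot be told apart there.

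Hoxa7 was lower in MUT at D7, D9 and D11, although these calls depended on how the spread was estimated. At D7 it ran from 544 to 1413 (median 903) in 9 MUT libraries and from 1210 to 2506 (median 1376) in 9 WT libraries, a difference of -0.72 ± 0.15 (adjusted p = 0.00453). At D9 it ran from 946 to 1883 in 5 MUT libraries and from 1777 to 2601 in 8 WT NFIAn libraries (-0.85 ± 0.19, adjusted p = 0.0174). At D11 it ran from 924 to 1580 in 6 MUT libraries and from 1998 to 3398 in 6 WT libraries (-0.90 ± 0.19, adjusted p = 0.00187). The groups overlapped at D7 and D9 and not at D11. At D5 MUT was lower within each of the 3 domains, from 370 to 1100 against 696 to 1485, but the gene was not called (-0.57 ± 0.16, adjusted p = 0.112). The D9 call was lost without MUT D9 p1, p2 or pM replicate 3 (adjusted p = 0.0886 to 0.248). A fit on only the groups compared called Hoxa7 at none of these days (adjusted p = 0.118, 0.145 and 0.0567). With the 18 libraries of high total removed the difference was -0.54 at D7 and -0.35 at D9, and neither was called (adjusted p = 0.125 and 1).

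Hoxa9 was the call of largest size. It ran from 0 to 36.8 in MUT and from 20.6 to 99.9 in WT at D7 (-2.68 ± 0.58, adjusted p = 0.00562), where 3 of 9 MUT libraries had 0. At D9 it ran from 0 to 88.4 in MUT and from 74.2 to 216 in WT NFIAn cells (-4.05 ± 0.73, adjusted p = 0.00126). At D11 it ran from 8.54 to 82.7 in MUT and from 125 to 770 in WT (-3.13 ± 0.71, adjusted p = 0.00456). The overlap thus narrowed to none at D11. The D9 call was lost without MUT D9 p2 replicate 3, the single library of its group (adjusted p = 0.218), and with the 18 libraries of high total left out (-2.13, adjusted p = 1). The D7 call was lost with edgeR (-1.79, adjusted p = 0.069) and in a fit on only the groups compared (adjusted p = 0.155).

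Hoxc8 was lower in MUT at D11, from 109 to 408 against 746 to 1429 in WT, with no overlap (-2.17 ± 0.51, adjusted p = 0.00616). At D7 it ran from 12.9 to 398 in MUT and from 214 to 469 in WT (-1.45 ± 0.41, adjusted p = 0.0493). Of 18 repeats that left out 1 library, 14 lost that call (adjusted p = 0.0601 to 0.177), and it held without MUT D7 p1, p2 or pM replicate 1 or WT D7 p1 replicate 3. It was also lost with a pseudocount of 8, no filter, TMM, edgeR, DESeq2, a fit on only the groups compared or the 18 libraries of high total left out (adjusted p = 0.0503 to 0.328). Hoxc6, which marks limb-innervating motor neurons, was lower in MUT at D7, from 151 to 494 against 354 to 616 (-0.80 ± 0.21, adjusted p = 0.03). That call was lost in 9 of 18 repeats (adjusted p = 0.0514 to 0.0918). They were those without MUT D7 p1 replicate 3, MUT D7 p2 or pM replicates 2 and 3, WT D7 p1 replicate 2, WT D7 p2 replicates 1 and 2 or WT D7 pM replicate 1. It was lost as well with edgeR (adjusted p = 0.0677), in a fit on only the groups compared (0.108) and with the 18 libraries of high total left out (0.26).

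At D7 the MUT replicate 1 libraries stood above the other MUT libraries for Hoxa7, Hoxc6 and Hoxc8, within the WT range. For Hoxc8 they did so at D5 and D9 as well, in part above the WT range. Hoxa9 differed, with 23.9 to 36.8 in MUT replicate 1 and up to 36.8 in replicate 3 at D7. At D7 Hoxc8 stood at 364, 392 and 398 in MUT replicate 1, from 38.5 to 99.9 in replicate 2 and from 12.9 to 190 in replicate 3. Hoxa7 ran from 1366 to 1413 in replicate 1 and from 544 to 1061 in replicates 2 and 3, and Hoxc6 from 363 to 494 against 151 to 235. The replicate 1 values did not overlap the other MUT values in any of the 3 genes and lay inside the WT ranges given above. At D9 Hoxc8 stood at 544 and 673 in replicate 1 and from 73.6 to 183 in replicate 3, and Hoxa7 at 1491 and 1883 against 946 to 1062. WT NFIAn cells of D9 ran from 181 to 560 for Hoxc8, so 1 of the 2 MUT replicate 1 values was above them. At D5 Hoxc8 ran from 430 to 796 in replicate 1, from 152 to 193 in replicate 2 and from 142 to 261 in replicate 3. In WT Hoxc8 ran from 202 to 461 at D5, and each MUT replicate 1 library was above all WT libraries of its own domain. Hoxc9 at D5 ran from 65.99 to 71.3 in replicate 1 and from 7.14 to 37.9 in the others, where WT ran from 12.1 to 61.8. Hoxc8 fell from D5 to D7 in MUT (-1.20 ± 0.41, means 329 and 188, adjusted p = 0.0242). That call was lost in 6 of 18 repeats, those without MUT D5 p1, p2 or pM replicate 1, MUT D7 p1 or pM replicate 2 or MUT D7 p2 replicate 3 (adjusted p = 0.058 to 0.124), and without all replicate 1 libraries the difference was -1.51 ± 0.34 (adjusted p = 0.00196). There is no MUT replicate 1 library at D11, so the MUT comparison of D11 with D5 sets libraries without that number against a mixture.

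The fit without all replicate 1 libraries was chosen after MUT replicate 1 was seen to stand apart in several of these genes. Its p-values are therefore no separate support. It called 5, 47 and 399 of all 15714 genes at D5, D7 and D11. In that fit 5 Hox genes were lower in MUT at D7. They were Hoxa7 (-0.98 ± 0.15, adjusted p = 0.000827), Hoxa9 (-3.47 ± 0.67, adjusted p = 0.0124), Hoxc6 (-1.07 ± 0.19, adjusted p = 0.00713), Hoxc8 (-2.27 ± 0.34, adjusted p = 0.000483) and Hoxc9 (-2.38 ± 0.51, adjusted p = 0.0302). At D9, where this leaves 1 library in each MUT group, the difference was -1.08 for Hoxa7 and -4.53 for Hoxa9. At D5 limma called 0, with Hoxa7 at an adjusted p of 0.0736. At D11, where no library is removed but the spread is re-estimated, Hoxa7, Hoxa9, Hoxc8 and Hoxc9 were called (Hoxc9 at -1.92, adjusted p = 0.0376), and Hoxb5 (0.0911) and Hoxc4 (0.0988) were not.

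With all libraries, Hoxb5 and Hoxc4 were higher in MUT at D11. Hoxb5 ran from 728 to 1556 against 443 to 1007 in WT (0.68 ± 0.20, adjusted p = 0.0381) and Hoxc4 from 378 to 816 against 206 to 474 (0.65 ± 0.20, adjusted p = 0.0466). Both ranges overlapped between genotypes, and each call was lost in a fit on only the groups compared (adjusted p = 0.108 and 0.247) and in 8 of 12 repeats that left out 1 library. For Hoxb5 these were the repeats without MUT p1 replicates 2 and 3, MUT p2 replicate 3, MUT pM replicate 2, WT p1 replicate 3, WT p2 replicates 2 and 3 and WT pM replicate 2 (adjusted p = 0.0628 to 0.17). For Hoxc4 they were those without MUT replicate 3 of any domain, WT p1 or p2 replicates 2 and 3, and WT pM replicate 2 (adjusted p = 0.0505 to 0.244).

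**Figure D5:**
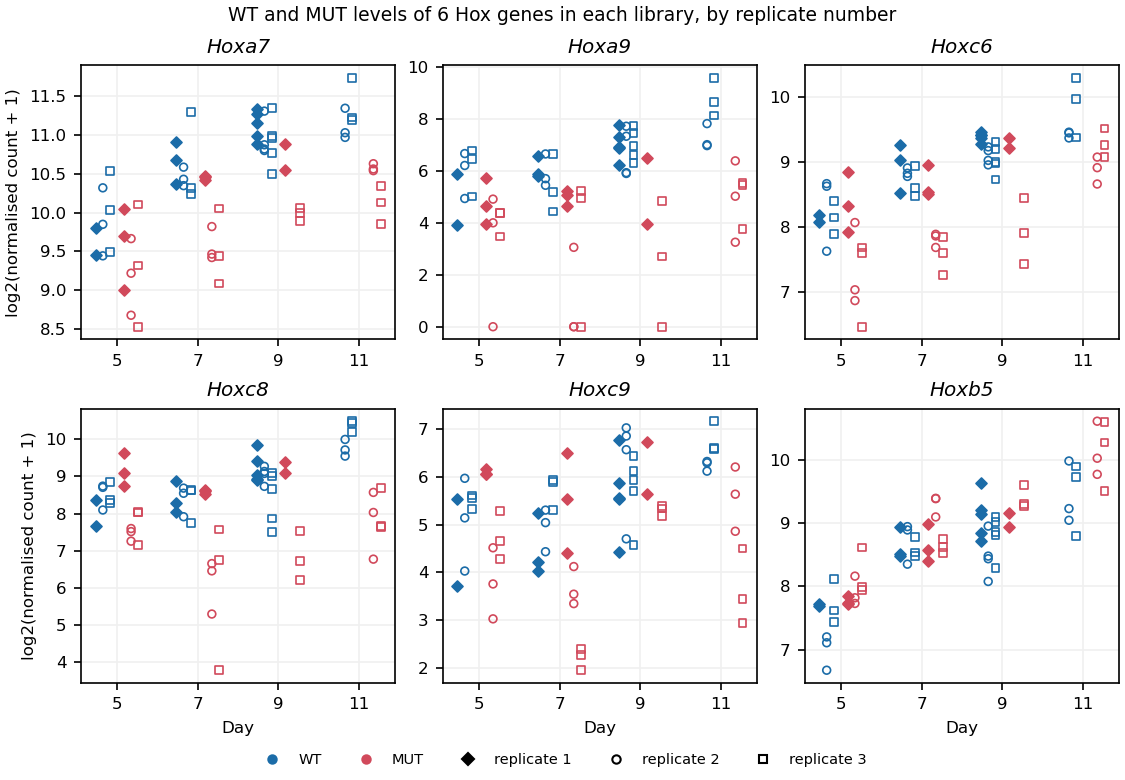
Levels of 6 Hox genes in each library by day, as log2(normalised count + 1), with WT in blue and MUT in red and replicate numbers by marker. The MUT replicate 1 libraries (filled diamonds) lie above the other MUT libraries at D7 for Hoxa7, Hoxc6 and Hoxc8; D11 has no replicate 1 library.

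The gate itself could be compared in WT p2 and pM cells of D9. Limma called 0 Hox genes between NFIAp and NFIAn, with 0.204% of all genes called, 4 Hox genes at an unadjusted p under 0.05, 0 by edgeR and 1 by DESeq2. These 4 were lower in NFIAp: Hoxc4 (-0.71 ± 0.21, adjusted p = 0.167), Hoxd3 (-0.67 ± 0.22), Hoxb6 (-0.50 ± 0.15) and Hoxb5 (-0.43 ± 0.21). Of these, Hoxc4 and Hoxb5 were called higher in MUT at D11, while Hoxd3 and Hoxb6 were not called there. The part of the gate in the D11 differences was not tested. Hoxc8 ran from 514 to 912 in NFIAp and from 181 to 482 in NFIAn cells, without overlap (0.90 ± 0.54, adjusted p = 0.697). For Hoxa7 the difference was -0.22 ± 0.20 (adjusted p = 0.873; means 1884 and 2206) and for Hoxa9 it was 0.04 ± 0.75 (adjusted p = 1; means 115 and 106). Nfia RNA ran from 1014 to 2177 in the MUT NFIAn libraries of D11 and from 1096 to 3639 in the WT NFIAp ones, which overlap.

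Between domains few Hox genes passed the test in the 2 comparisons made in each genotype, and p1 was not tested against pM. Limma called 0 Hox genes for p2 minus p1 in WT (1.83% of all genes called, 4 Hox genes at an unadjusted p under 0.05, 1 by edgeR and 1 by DESeq2). It called 0 for p2 minus p1 in MUT (0.598%, 5 unadjusted, 0 by both tools) and 0 for pM minus p2 in MUT (3.26%, 5 unadjusted, 0 by both tools). For pM minus p2 in WT it called 1 (2.46% of all genes called, 1.77% lower). That gene was Hoxd3, from 253 to 595 (median 383) in 9 pM libraries and from 417 to 794 (median 552) in 11 p2 libraries, a difference of -0.58 ± 0.17 (adjusted p = 0.0473). The ranges overlapped, 62.8% of its exon bases overlap another gene, and the call was lost in 15 of 20 repeats that left out 1 library (adjusted p = 0.0689 to 0.129) and without the replicate 1 libraries. It was kept without WT D5 p2 replicate 2, WT D7 p2 replicate 3, WT D7 pM replicate 2 or WT D9 p2 replicates 1 and 3 of NFIAn cells. In MUT the same gene had -0.40 ± 0.18 (adjusted p = 0.248). Hoxa4 was lower in p2 than p1 in both genotypes without passing the test, at -0.61 ± 0.19 in WT (adjusted p = 0.0851) and -0.65 ± 0.21 in MUT (adjusted p = 0.213). Its p1 and pM libraries, set side by side after their values were seen and with no test, did not overlap at D7, D9 or D11. At D7 it ran from 141 to 407 in p1 and from 58.5 to 106 in pM of WT, and from 130 to 301 and 56.8 to 99.1 in MUT. In NFIAn cells of D9 it ran from 336 to 616 and 157 to 197 in WT, and from 328 to 494 and 221 to 277 in MUT. At D11 it ran from 425 to 587 and 185 to 245 in WT, and from 354 to 585 and 182 to 204 in MUT. At D5 the p1 and pM ranges overlapped in both genotypes.

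Genes that act on the clusters were followed as fixed lists. Beside the D11 minus D5 counts of every list below, 25.1% of all genes tested were called higher and 22.8% lower in WT. In MUT 24.1% were called higher and 22% lower. List counts near these shares do not set a list apart from all genes. Of 15 tested regulators of Hox onset, 2 were higher and 8 lower at D11 than D5 in WT (median -1.82), and the same counts held in MUT (median -1.43). Nr6a1, a nuclear receptor that in mouse acts in trunk Hox timing, fell from a mean of 2442 to 54.3 in WT (-5.55 ± 0.34) and from 2675 to 59.2 in MUT (-5.92 ± 0.32). Crabp2, which carries retinoic acid to its receptors, fell from 66614 to 5906 in WT (-3.68 ± 0.28). Cdx1 and Cdx2, activators of central Hox genes, had WT means of 41.4 and 38.4 at D5 and were at 0 in all D11 libraries of both genotypes. Cdx2 was lower in MUT at D5, with means of 30.8 and 38.4 (-1.67 ± 0.39, adjusted p = 0.0332), but the domains differed widely. The MUT libraries ran from 0 to 0.892 in p1, from 5.89 to 30.1 in p2 and from 15.3 to 130 in pM, and the WT libraries from 8.35 to 18.6, 29.9 to 59.5 and 39.9 to 104. The genotypes were thus apart in p1 only, and the highest value of all was in the MUT pM replicate 1 library. Without the replicate 1 libraries the difference was -2.14 ± 0.51 (adjusted p = 0.104). Gdf11 was at trace level and not called.

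Of the 9 TALE cofactors 3 were higher and 4 lower in WT (median 0.09), and 3 higher and 2 lower in MUT (median -0.03). Pbx4 rose from a mean of 124 to 336 in WT (1.41 ± 0.25) and from 83.4 to 186 in MUT (1.14 ± 0.24), and was lower in MUT at D11 (-0.86 ± 0.26, adjusted p = 0.0483). Meis3 was higher in MUT at D11, with means of 4975 and 2952 (0.70 ± 0.14, adjusted p = 0.000771). Of 22 Polycomb and Trithorax factors, which hold Hox chromatin closed or open, 4 were higher and 9 lower in WT (median -0.21) and 2 higher and 9 lower in MUT (median -0.24). Cbx2, a Polycomb subunit, fell from 1998 to 472 in WT (-2.02 ± 0.29) and Cbx8, another, rose from 309 to 694 (1.19 ± 0.16).

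Of 23 noncoding RNAs of the clusters, 18 were in the table and 8 were tested, with 2 higher and 1 lower in WT (median -0.27) and 2 higher and 0 lower in MUT (median 0.07). Hoxb5os, whose exons overlap Hoxb5, rose from a mean of 5274 to 15346 in WT (1.37 ± 0.40, adjusted p = 0.0041) and from 2427 to 6890 in MUT (1.17 ± 0.39, adjusted p = 0.0118). Hoxaas3, which overlaps Hoxa7, fell in WT from 1563 to 621 (-1.44 ± 0.33, adjusted p = 0.000296), opposite to Hoxa7, and had -0.09 ± 0.32 in MUT (adjusted p = 0.836). The microRNA genes Mir10a, Mir10b, Mir196a-2 and Mir196b were at 0 in all libraries. These hold polyadenylated RNA and do not measure mature microRNAs, so the 0 does not show their absence. Of 10 tested genes that flank the clusters, 3 were higher in WT (median 0.25) and 4 in MUT (median 0.33), with none lower. Evx1, next to Hoxa13, had means of 0.386 at D5 and 62.5 at D11 in WT, and 0.0929 and 75.6 in MUT, while Hoxa13 stayed at 0 reads.

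Markers of other cells moved with time as well. All 8 neuron markers rose in both genotypes, and their summed level went from 1758 to 12821 at D5 to 16038 to 35497 at D11 in WT and from 1248 to 10778 to 23883 to 30905 in MUT. The sum of 8 mesenchyme markers went from 133 to 598 to 1160 to 6024 in WT (5 rose and 1 fell) and from 136 to 547 to 771 to 5133 in MUT (6 rose and 1 fell). All 4 neural crest markers rose in both genotypes, with WT sums of 1.55 to 67.9 at D5 and 241 to 1444 at D11. The sum of 5 paraxial mesoderm and neuromesodermal markers went from 546 to 1181 to at most 24.8 in WT and from 664 to 2074 to at most 23.9 in MUT, with Msgn1 at 0 in all of these libraries. The part of these cells in the Hox differences over time was not tested.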

How the data were processed

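Cells were fixed with glyoxal, stained inside the cell and sorted at 10000 to 15000 per population, per the labels' protocols. Reads were mapped to mm10 and counts were normalised with DESeq2, per the submitters' processing notes; versions, counting annotation and strand are not given in the sources used here. Values of the deposited signal are normalised read counts (count over size factor), and division by the value of 1 read gave whole numbers within 0.01 for 100% of values. Recovered depth was 8.74 to 30.8 M reads per library (median 24.3 M). Of 24410 genes, 4989 were at 0 in all libraries.

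One mean per group was fitted over all 66 libraries with limma 3.58.1 (R 4.3.3) and a trend in the variance, on log2(normalised count + 1), after a filter of at least 10 in at least 2 libraries. Tests were two-sided with Benjamini-Hochberg adjustment over 15714 genes and a threshold of 0.05. WT D9 minus D7 used NFIAn cells. The alternatives were TMM scaling, a pseudocount of 8, no filter, edgeR 4.0.16 and DESeq2 1.42.0 on the recovered reads, a fit on only the groups compared, 3 forms of replicate block, and leaving out each library, the 18 libraries of high total or all replicate 1 libraries. Figures were drawn with matplotlib 3.10.9.

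The counts cover all 39 members, of which 1 is not reported here by name. In each comparison the text names called members whose higher group averaged 50 or more, at most 8 per direction by size, and at most 5 called genes per list. The members and lists were chosen with earlier results of these data known. Intervals and limits cover counting error only. No library was left out of the fit, and the single library of MUT D9 p2 was assumed to vary like those of the other groups.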

Additional observations from a re-analysis of the deposited data

How the results depend on the processing

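Of 111 calls of single Hox genes, 63 held under all alternatives, 48 were lost under at least 1 and 0 reversed; of 1122 values under alternatives other than leaving out 1 library, 982 kept their side of the threshold and 140 did not. The counts below are Hox genes called by each alternative, where it moved the count by over 1.5 times. For WT pM minus p2 (1 call), no filter gave 0, TMM 0, edgeR 0, DESeq2 2, a fit on only the groups compared 2, the fit without the 18 libraries of high total 0 and the fit without replicate 1 libraries, chosen after the data were seen, 0. edgeR gave 1 for MUT minus WT at D7 and 1 for WT p2 minus p1. DESeq2 gave 1 for the difference between genotypes in the D5 to D11 change, 1 for WT p2 minus p1 and 1 for the gate at D9. A fit on only the groups compared gave 0 for MUT D11 minus D9, 1 for MUT pM minus p2, and 2, 1, 1 and 2 for MUT minus WT at D5, D7, D9 and D11. Without the 18 libraries of high total the counts were 7 for WT D9 minus D7, 4 for MUT D9 minus D7, 1 for MUT D11 minus D9, 1 for MUT pM minus p2, and 1, 1, 0 and 8 for MUT minus WT at D5, D7, D9 and D11. Without replicate 1 libraries WT D9 minus D7 gave 6. Calls over all genes moved as well. For MUT minus WT at D11 they were 650 in the main fit and 1529 without the 18 libraries of high total. A fit on only the groups compared called 444 of all genes for MUT minus WT at D5, against 72 in the main fit. The cause of these shifts was not tested.

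Same-numbered libraries of the same genotype and day deviated together in part. Over 74 pairs the correlation of their deviations was 0.00915 to 0.395 (median 0.168), with 56 above 0.1. Over 134 pairs of different numbers it was -0.303 to 0.211 (median -0.0955). The main fit leaves the numbers out and treats such libraries as independent, so its p-values between genotypes or days may be too small. As a hint from the data, 61 of 65 libraries correlated best with their own number. With the replicate block as a fixed term the counts were 6 for WT D11 minus D9, 6 for MUT D11 minus D9 and 1 for MUT minus WT at D5. With the replicate block as a correlation (0.375) the Hox counts were 10 for MUT D7 minus D5, 5 for MUT D9 minus D7, 0 for MUT D11 minus D9, 0, 0 and 1 (Hoxa7) for MUT minus WT at D7, D9 and D11, 2 for WT p2 minus p1, 4 for WT pM minus p2, 3 for MUT p2 minus p1 and 3 for the gate. All genes called were, in the same order, 2551, 454, 297, 37, 28, 107, 1043, 971, 423 and 454. With the replicate block within day the Hox counts were 5, 9, 4 and 11 for MUT minus WT at D5, D7, D9 and D11, 1 for WT p2 minus p1, 3 for WT pM minus p2, 3 for MUT p2 minus p1 and 3 for the gate. All genes called were, in the same order, 798, 2275, 784, 3180, 1342, 992, 664 and 543. Calls over all genes thus rose with those of Hox genes in this fit.

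Leaving out each library in turn gave 21 to 24 calls for WT D11 minus D5, 19 to 21 for MUT, 0 to 0 for their difference, 10 to 14, 9 to 13 and 2 to 3 for the 3 WT steps and 14 to 18, 6 to 9 and 1 to 4 for the 3 MUT steps. It gave 0 to 0, 2 to 4, 0 to 3 and 3 to 6 for MUT minus WT at D5, D7, D9 and D11, 0 to 1 for WT p2 minus p1, 0 to 1 for WT pM minus p2, 0 to 0 for both MUT domain comparisons and 0 to 1 for the gate. The D7 genotype count was 2 without any 1 of MUT D7 p1 replicate 3, p2 replicates 2 and 3, pM replicate 3 and WT D7 p1 replicate 2, p2 replicates 1 and 2, pM replicate 1. The D9 genotype count was 0 without MUT D9 p2 replicate 3 and 1 without MUT D9 p1 or pM replicate 3. The D11 genotype count was 3 without MUT D11 p1 or p2 replicate 3 or WT D11 p1 replicate 3, p2 replicate 2, p2 replicate 3 or pM replicate 2. Depth limits the 9 untested and the trace genes at numbers 10 to 13, where 1 library can hold most reads of a gene.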
